A study of Mus musculus with 2 samples.

Results

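The 10 core circadian clock genes Per1, Per2, Per3, Cry1, Cry2, Arntl, Clock, Npas2, Nr1d1 and Nr1d2 were followed in total RNA sequencing of mouse hippocampus. They were chosen by symbol, each matched 1 gene identifier, and they are 10 of 55536 annotated genes. There were 2 libraries of 1 group, both from female B6CASTF1/J animals (the first-generation cross of C57BL/6J with CAST/EiJ) aged 2 months, with 300 ng of RNA each. No treatment, transgene or second condition is named in the labels, which give the tissue as a layer of the hippocampus. The libraries are labelled biological replicates 1 and 2 with separate tissue records, but they share 1 donor record. The spread between them may therefore be partly technical. Annotated genes held 29490900 expected read counts in replicate 1 and 30691917 in replicate 2. The sources used here do not give the time of day at which tissue was taken, and reads were not split by parental copy.

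The circadian clock of mammalian cells is a transcriptional feedback loop that turns over about once a day. A dimer of BMAL1, the product of Arntl, with CLOCK or its paralog NPAS2 binds E-box sequences and drives transcription of the Per, Cry and Nr1d genes. PER and CRY proteins return to the nucleus and block that dimer, while the nuclear receptors REV-ERB alpha (Nr1d1) and REV-ERB beta (Nr1d2) hold back Arntl. Neurons and glia of the hippocampus run such a loop locally, in step with the master pacemaker of the suprachiasmatic nucleus, and it is known to bear on memory across the day. In whole tissue, fewer cells of a type and less RNA per cell cannot be told apart.

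Promoter windows of the members were searched first for the motifs that clock factors are known to bind. RefSeq (GRCm38.p6) gave 13 promoter windows for 9 of the 10 genes, each with 250 bases before and 50 bases after the start. Per2 has no entry. In 2 of the 13 windows, those of Per1 and Cry1, stood the E-box CACGTG, against 7.15% of all 32851 windows. The related CACGTT was found in 3 windows (Cry1, Cry2 and Nr1d1), against 4.68% of all windows. The D-box TTATGTAA, bound by the DBP and TEF family, stood in the Per3 window, at positions -205 and -158 from the start, against 0.938% of all windows. The variant TTATGCAA stood at position -24 of Per1, against 0.743%. The nuclear receptor core motif AGGTCA was found in 4 windows (Per1, Arntl, Clock and Nr1d2), against 16.3% of all. The Arntl match is at position 31 of its second window, downstream of the RefSeq start. The Clock match is in its innermost window, which has no annotated transcript start within 100 bases. The cyclic AMP response element TGACGTCA was in 0 of 13 windows, against 1.79% of all. Both strands were searched, the capitals of 1 site overlap those of no other, the 2 windows of Arntl and the first 2 of Clock share bases, and the printed stretches around the Per3 sites overlap at their ends. The sites shown stand for the E-box, D-box and receptor core motifs in Per1, Per3, Cry1, Nr1d1 and Arntl, with the matched letters in capitals (for Nr1d1 the match is on the opposite strand). The second Per1 window, at its inner start, held none of the 6 motifs. A match is a run of letters in the GRCm38.p6 reference and not a measured binding site. The sequence of the CAST/EiJ copies was not searched.
Per1 E-box, chr11:69098756-69098815, + strand: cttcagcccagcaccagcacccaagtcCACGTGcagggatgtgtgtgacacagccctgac
Per1 D-box, chr11:69098914-69098943, + strand: agggcctggcaTTATGCAAcccgcctccca
Per3 first D-box, chr4:151044836-151044897, - strand: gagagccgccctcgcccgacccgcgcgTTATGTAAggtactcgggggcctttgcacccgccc
Per3 second D-box, chr4:151044789-151044850, - strand: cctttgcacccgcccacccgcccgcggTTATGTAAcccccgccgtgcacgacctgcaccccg
Cry1 E-box, chr10:85185082-85185141, - strand: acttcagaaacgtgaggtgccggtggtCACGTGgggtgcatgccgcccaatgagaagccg
Nr1d1 E-box variant, chr11:98775388-98775417, - strand: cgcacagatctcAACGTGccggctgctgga
Arntl receptor core motif, chr7:113207530-113207559, + strand: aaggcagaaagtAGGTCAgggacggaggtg

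All 10 clock genes were detected, from Cry1, above 20.6% of detected nuclear protein-coding genes, to Cry2, above 81.1%. Each reached 1 TPM (a level scaled for transcript length and for the total of the library) in both libraries, with a median over the 10 of 19 TPM in replicate 1 and 18 in replicate 2. The median of the 12773 nuclear protein-coding genes detected at that level was 14.6 TPM. From Cry2 at the top to Cry1 at the bottom the levels spanned 8.60-fold in replicate 1 and 8.16-fold in replicate 2. The 10 genes together held 0.0562% and 0.0585% of gene counts.

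Among the activators, the 3 genes lay close together. Clock, the partner of BMAL1 known for histone acetyltransferase activity (ENSMUSG00000029238.11, chromosome 5, 76209868 to 76304792, - strand, mm10), stood at 21.06 TPM in replicate 1 and 20.27 in replicate 2, from 3207 and 3269 counts. Arntl, the gene of the shared partner BMAL1 (ENSMUSG00000055116.8, chromosome 7, 113207465 to 113314126, + strand), stood at 16.91 and 15.74 TPM from 979 and 976 counts. Npas2, the forebrain paralog of Clock (ENSMUSG00000026077.15, chromosome 1, 39193731 to 39363236, + strand), stood at 15.14 and 13.96 TPM from 981 and 979 counts. All 3 were slightly lower in replicate 2 by TPM, by less than the width of the authors' intervals. Within a library Clock exceeded Npas2 by 0.51 ± 0.04 on the log2 scale (mean ± SD, n = 2), or 1.42-fold, and exceeded Arntl by 0.34 ± 0.03, or 1.27-fold. The log2 ratio of Npas2 to Arntl was -0.17 ± 0.01 over all annotated transcripts and -0.59 over transcripts of at least 1000 bases. The annotated span of Clock holds the processed pseudogene Ube2n-ps1 on the same strand, listed at 56.1 ± 4.13 TPM. The sources used here do not say how reads were shared between them.

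The repressors covered the full range of the set. Cry2, a cryptochrome that blocks the activating dimer (ENSMUSG00000068742.11, chromosome 2, 92403646 to 92434043, - strand), was the highest of the 10 at 39.84 and 41.03 TPM, from 2964 and 3134 counts. Its paralog Cry1 (ENSMUSG00000020038.10, chromosome 10, 85131700 to 85185064, - strand) was the lowest at 4.63 and 5.03 TPM, from 294 and 333 counts. The log2 ratio of Cry2 to Cry1 was 3.11 in replicate 1 and 3.03 in replicate 2, or 8.38-fold. This was the widest of the 9 ratios between 2 genes compared, and it stood at 2.98 in the authors' second quantification, which the accompanying notes derive from the read files. The Cry1 value lay near the lower bound of the authors' interval in each library (4.38 to 7.07 TPM in replicate 1, 4.76 to 7.33 in replicate 2).

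Of the Period genes, Per1 was the highest and Per2 and Per3 lay together. Per1, the light- and activity-responsive member (ENSMUSG00000020893.17, chromosome 11, 69095217 to 69109960, + strand), stood at 30.65 TPM in replicate 1 and 37.20 in replicate 2, from 2124 and 2487 counts. Per2, the member most needed for a sustained rhythm (ENSMUSG00000055866.9, chromosome 1, 91415982 to 91459324, - strand), stood at 10.18 and 10.73 TPM from 1113 and 1225 counts. Per3, the member least needed for rhythm (ENSMUSG00000028957.12, chromosome 4, 151003652 to 151044665, - strand) stood at 9.65 and 13.91 TPM from 1081 and 1459 counts. The libraries' intervals for Per3 did not overlap (8.92 to 10.5 and 12.4 to 14.7 TPM), those of Per1 met at their edges (26.7 to 33.1 and 33.1 to 39.8), and those of Per2 overlapped for nearly their whole width. The log2 ratio of Per1 to Per2 was 1.69 ± 0.14 (SD, n = 2), or 3.23-fold, and that of Per1 to Per3 was 1.54 ± 0.18, or 2.91-fold. The latter was 0.94 on the log2 scale in the second quantification and 0.99 over transcripts of at least 1000 bases. Per2 over Per3 was 0.08 in replicate 1 and -0.37 in replicate 2, so the order of these genes differed between the libraries. Per3 was above Per2 in both libraries in the second quantification (-0.29 and -0.59) and over transcripts of at least 1000 bases, which leave out the 231-base transcript Per2-202.

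Both nuclear receptors had higher mean TPM than the activators, though the intervals of Nr1d2 and Clock met in replicate 1. Nr1d1, the repressor of Arntl (ENSMUSG00000020889.11, chromosome 11, 98767932 to 98775333, - strand), stood at 37.51 and 36.39 TPM, from 2021 and 2065 counts. Nr1d2, its paralog (ENSMUSG00000021775.11, chromosome 14, 18204054 to 18239127, - strand), stood at 23.08 and 23.97 TPM, from 1824 and 2017 counts. Nr1d1 exceeded Nr1d2 by 0.65 ± 0.07 on the log2 scale, or 1.57-fold, and exceeded Arntl by 1.18 ± 0.04, or 2.26-fold. The end of Nr1d1 overlaps Thra, the thyroid hormone receptor alpha gene on the opposite strand, over 1075 bases. Thra was listed at 398 ± 12.8 TPM, and whether counting used strand is not stated, so a part of the reads there could belong to either gene.

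Summed by role, the 5 repressors stood at 94.95 TPM in replicate 1 and 107.9 in replicate 2, the 3 activators at 53.11 and 49.97, and the 2 nuclear receptors at 60.59 and 60.36. The repressor sum exceeded the activator sum by 0.97 ± 0.19 on the log2 scale, or 1.96-fold, and by 0.74 in the second quantification. These are sums over 5 and 3 genes, so the ratio is not one of levels per gene. The sum of the Per genes over that of the Cry genes was 0.30 ± 0.17, within 3 SD. Of 12 ratios between genes or roles, 10 exceeded 3 SD, and 8 did in the second quantification. An exact permutation test over 2 libraries cannot go below 0.5, so no p-value is given, and an SD from 2 values can be small by chance.

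**Figure D1:**
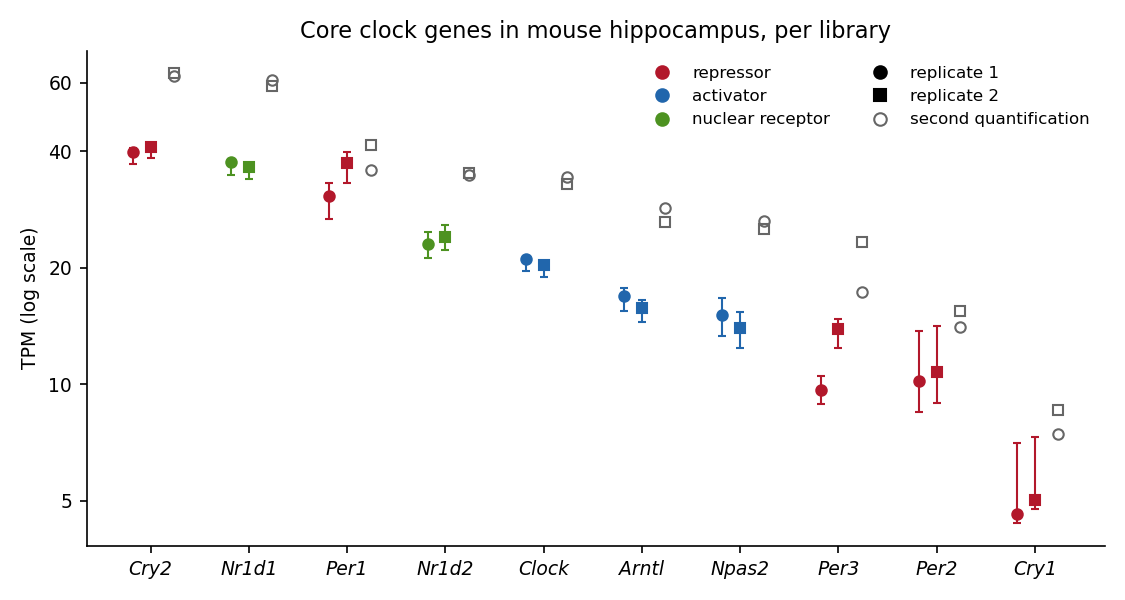
Level of each core clock gene in TPM (log axis), ordered by mean. Filled circles are replicate 1 and filled squares replicate 2, coloured by role, with bars for the authors' interval, and open grey symbols are the second quantification. Cry2 (39.84 and 41.03 TPM) is at the top and Cry1 (4.63 and 5.03) at the bottom, and the libraries stand apart for Per3.

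By mean TPM the order from the top was Cry2, Nr1d1, Per1, Nr1d2, Clock, Arntl, Npas2, Per3, Per2 and Cry1. Among the 9 pairs of neighbours, the authors' intervals were separate in both libraries for 3, which were Per1 above Nr1d2, Clock above Arntl and Per2 above Cry1. For the other 6 neighbour pairs the intervals met in at least 1 library, so the order within them is not settled by these data. Over all 45 pairs of the 10 genes, 36 had separate intervals in both libraries. Per1 ranked the third in replicate 1 and above Nr1d1 in replicate 2, and Per2 and Per3 changed places. The second quantification gave the same order for 45 of the 45 pairs, at higher TPM for each gene (from 8.02 for Cry1 to 63.0 for Cry2).

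The clock genes differed between the libraries about as often as all genes tested, and Per3 differed the most. Ratios of replicate 2 to replicate 1 were taken from counts scaled by edgeR's TMM factors. All 10 genes passed the minimum of 1 CPM (a count scaled to the library's total). The count of members at a log2 ratio of at least 0.25 was 1 of 10, against 14.6% of the 15509 genes tested, and at least 1 was reached by 0 of 10, against 0.529%. Per3 was that gene, at a log2 ratio of 0.37, or 1.29-fold higher in replicate 2, with a counting interval of 0.26 to 0.49. This size exceeded that of 92.6% of genes tested, and 7.87% of genes tested were at least 0.25 higher in replicate 2. Among genes at a mean of 5 CPM or more, 694 of 11659 were at 0.25 or more in either direction. No clock gene was lower by that much, against 6.75% of genes tested.

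Per1 was the next, at 0.17 (interval 0.08 to 0.25). By TPM in place of counts Per1 reached 0.28 and Per3 0.53, as the effective length estimated for Per3 was 5162 bases in replicate 1 and 4640 in replicate 2. The interval left out equal levels for these 2 of 10 genes, against 18.7% of all genes tested. The other ratios lay between -0.06 for Arntl and Npas2 and 0.12 for Cry1, with intervals that included 0. The intervals are exact binomial 95% intervals of the counts of 2 libraries and cover counting error only. The common spread between the libraries, which edgeR terms a biological coefficient of variation, was 4.86% and may be partly technical. It corresponds to an SD of 0.099 in the log2 ratio with counting error left out. The middle 95% of ratios over all genes tested ran from -0.429 to 0.473. The SD of 0.099 is therefore not the full spread against which the ratio of a single gene can be judged. The median ratio was 0.05 over the 10 genes and -0.003 over all genes tested. In replicate 2, 6 genes were higher and 4 lower, or 8 and 2 with scaling on the ERCC spike-in RNAs, which moved the median of all genes to 0.04 and turned the sign of Clock and Nr1d1.

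**Figure D2:**
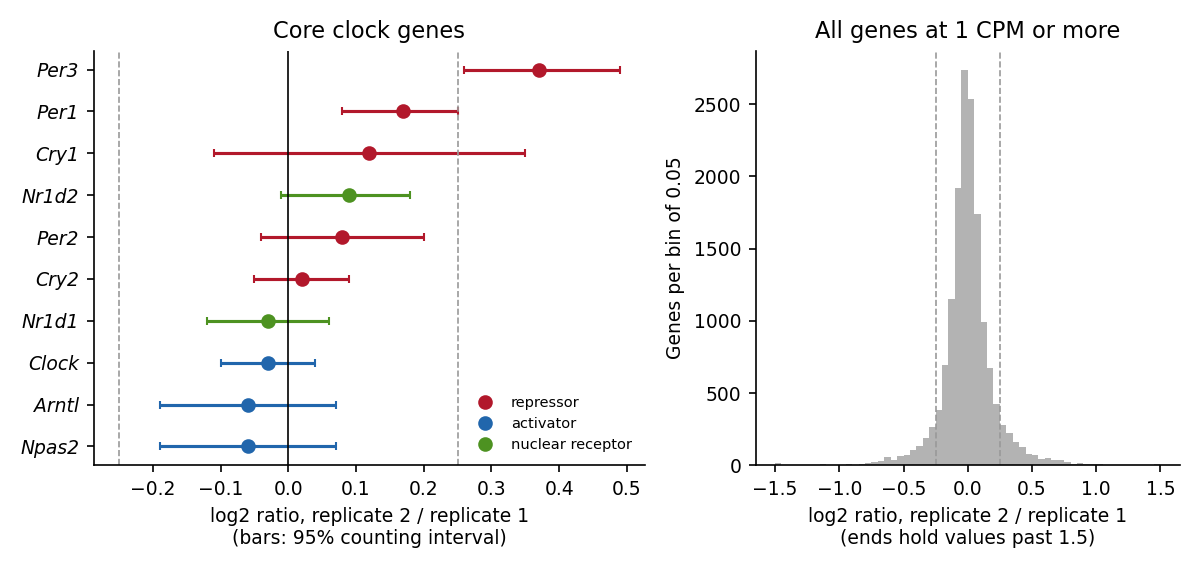
Left, log2 ratio of replicate 2 to replicate 1 for each core clock gene, with exact binomial 95% counting intervals. Right, the same ratio for the 15509 genes tested, as a histogram, with dashed lines at 0.25 in each direction. Per3 at 0.37 is outside the lines and the other clock genes are inside them.

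Markers placed these ratios beside the make-up of the tissue. All 8 hippocampal neuron markers were detected, led by Slc17a7 at 533 ± 12.4 TPM. Their summed level was 946.2 TPM in replicate 1 and 960.8 in replicate 2, of which Slc17a7 held 541.8 and 524.3. By log2 ratio Prox1 and Calb1 (0.22 each), Zbtb20 (0.18), Fibcd1 (0.10) and Neurod6 (0.04) were higher in replicate 2. Grik4 (-0.19), Slc17a7 (-0.05) and Wfs1 (-0.02) were lower, so the sum does not show whether the make-up of neurons was alike. The sums of astrocyte markers (427.7 and 459.6 TPM, led by Slc1a3) and oligodendrocyte markers (861.5 and 950.6, led by Mbp) were higher in replicate 2. Those of GABAergic neurons (406.7 and 386.8, led by Sst) and microglia (99.15 and 93.13, led by Csf1r) were lower. Within the GABAergic list Sst stood at 174.4 and 154.4 TPM, Gad2 and Slc32a1 were also lower, and Gad1 and Pvalb were higher by TPM. Log2 ratios ran from -0.18 to 0.10 in that list and from -0.13 to -0.03 in the microglia list. The endothelium sum was nearly level (78.21 and 77.86, led by Ly6c1), with a median log2 ratio of 0.04. No member of the neuronal, glial and endothelial lists was at 0 counts, and 1 of them, Cldn5 in the endothelium list (-0.39), reached 0.25 in size. Blood genes were higher in replicate 2 for 4 of 4 members (328.5 and 583.4 TPM in sum, led by Hbb-bs), and all 3 tested choroid plexus genes were lower, 2 of them by at least 0.25 on the log2 scale (sum of all 5, 128.7 and 71.96 TPM, led by Ttr). The part of these lists in the Per3 difference was not tested. Of 7 peptide genes of the suprachiasmatic nucleus and hypothalamus, 2 were detected, Grp (13.5 ± 1.91 TPM) and Vip (5.73 ± 0.594). Avp, Nms, Prok2, Oxt and Hcrt did not reach 1 TPM in both libraries. Which cells the Grp and Vip reads came from was not tested. Nms and Hcrt were at 0 counts in each library. A count of 0 leaves room for levels up to 0.102 CPM in replicate 1 and 0.0977 CPM in replicate 2 (3 counts).

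The transcripts behind each gene level were then separated. The 10 genes have 42 annotated transcripts, of which 23 are listed as protein coding, 10 as retained intron, 7 as processed transcript and 2 as targets of nonsense-mediated decay. A retained-intron or processed transcript has no annotated reading frame. In the first quantification a complete coding transcript led in both libraries for 10 of 10 genes. Transcripts other than protein coding took a median of 11.7% of TPM over the 10 genes, against 15.6% over 9178 protein-coding genes with at least 5 TPM and at least 2 transcripts.

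By share of TPM in the first quantification, Cry1 and Nr1d1 were the most uniform, while by counts Per2-201 (99.7%) was above Nr1d1-201 (98.2%). Cry1-201, with 606 codons, took 100% of the TPM of Cry1 in both libraries (100% and 91.9% in the second quantification), and Nr1d1-201, with 615 codons, took 93.5% ± 1.03 (SD, n = 2). The remainder of Nr1d1 was the processed transcript Nr1d1-202 at 6.50% ± 1.03. Cry2-201 took 78.3% ± 1.98 of Cry2. Next was the processed transcript Cry2-203 at 9.12% ± 0.475, close to the coding form Cry2-202 (8.57% ± 1.64), which encodes the same 592 codons in a shorter transcript. The start beside the RefSeq window of Cry2 carried 96.0% ± 0.136 of its TPM, and that of Nr1d2, with 3 transcripts, 90.1% ± 1.74.

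By share of TPM, Nr1d2 and Clock carried the most retained intron after Per3 (32.6% ± 5.10). For Nr1d2, Nr1d2-201 (576 codons) took 73.7% ± 1.31, and the retained-intron transcripts Nr1d2-202 and Nr1d2-203 took 16.4% ± 0.427 and 9.90% ± 1.74. By counts these 2 retained-intron transcripts were at 7.05% and 1.58%. Clock-205, the transcript of 9744 bases with 855 codons, took 48.7% ± 1.88 of Clock and Clock-201, of 7478 bases and the same number of codons, 17.0% ± 0.617. Clock-204, which starts further within the gene at 76274012, took 11.4% ± 1.07, and retained-intron transcripts of Clock took 18.4% ± 1.09, divided between Clock-206 (8.31% and 10.6%) and Clock-203 (9.31% and 8.58%). By counts Clock-206 and Clock-203 were at 3.17% and 2.77%. The shares of both genes were alike in the libraries. Their transcripts other than protein coding came to 22.2% ± 2.00 for Nr1d2 and 20.8% ± 0.0118 for Clock in the second quantification, beside 26.3% ± 1.31 and 22.9% ± 0.193 in the first.

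Arntl-201 (626 codons) took 66.2% of Arntl in replicate 1 and 82.1% in replicate 2. Arntl-206, which starts at 113234623, away from the windows searched, and encodes 633 codons, took 15.9% and 7.05%. In the second quantification these shares were 59.0% and 60.8% for Arntl-201 and 19.3% and 14.7% for Arntl-206. The larger gap between the libraries was therefore found in the first quantification and not in the second. Retained-intron transcripts of Arntl took 11.0% ± 0.350, divided between Arntl-202 (5.77% ± 0.292) and Arntl-205 (5.28% ± 0.642).

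Because TPM divides counts by transcript length, annotated transcripts shorter than 1000 bases took a larger share of TPM than of counts. The largest such shares of TPM were in Per1, Npas2 and Per2. By mean share the same held for Nr1d2-203 (9.9% of TPM and 1.58% of counts), Nr1d1-202 (6.5% and 1.78%) and Arntl-205 (5.28% and 1.46%). Cry2-204, at 0.28% of counts, was a further case. The TPM shares given above for these transcripts carry the same limit. Per1-204, a fragment of 496 bases whose reading frame has no annotated end, took 32.0% ± 3.25 of the TPM of Per1 but 4.14% ± 0.643 of its counts. Npas2-203, of 484 bases, likewise took 27.5% ± 1.35 of TPM and 3.47% ± 0.268 of counts, beside Npas2-201 (816 codons) at 70.9% ± 2.18 of TPM. Per2-202, a processed transcript of 231 bases, took 12.3% ± 0.189 of TPM from 3.64 and 3.90 counts, beside Per2-201 (1257 codons) at 87.7% ± 0.189. In the second quantification Per1-204 and Per2-202 were at 0% in both libraries, and Npas2-203 was at 34.2% ± 0.783. Over transcripts of at least 1000 bases Per1 stood at 21.56 and 24.46 TPM, Npas2 at 10.49 and 10.11, and Per2 at 8.91 and 9.42. On that basis Per1 was close to Nr1d2 (20.51 and 21.90 TPM) and Clock (21.05 and 20.29), and Per3 ranked above Npas2.

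**Figure D3:**
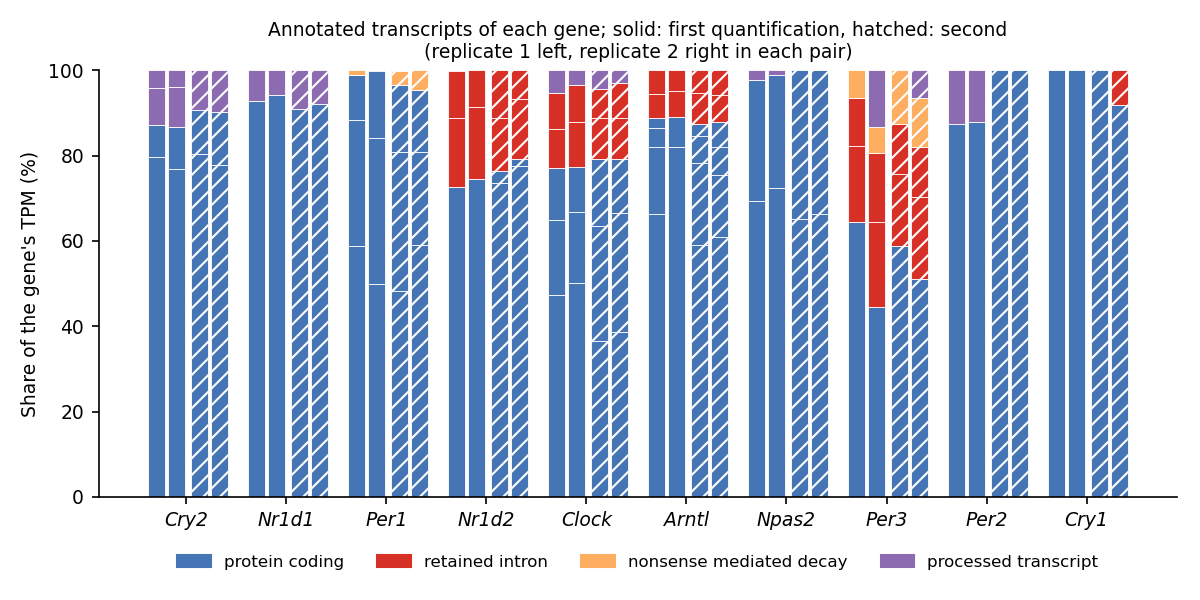
Share of each gene's TPM (%) on its annotated transcripts, 1 segment per transcript, coloured by annotated class. Solid bars are the first quantification and hatched bars the second, each with replicate 1 left of replicate 2. Per3 has the largest part outside protein-coding transcripts (35.6% and 55.6% in the first quantification).

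The higher Per3 count in replicate 2 lay mostly outside its leading transcript. Per3-201, the full coding transcript (1113 codons), held 795 counts in replicate 1 and 823 in replicate 2, a log2 ratio of -0.01. The other 4 Per3 transcripts together held 286 and 636 counts, a log2 ratio of 1.09. They took 92.5% of the count by which replicate 2 exceeded replicate 1. In the first quantification, transcripts other than the leading one also moved in Per1 (340 and 568 counts, a log2 ratio of 0.68, 63% of the gain). They moved in Arntl too (297 and 155 counts, lower in replicate 2), so there this was not particular to Per3. In the second quantification they moved the opposite way in Per1 (1491 and 965 counts, a log2 ratio of -0.67). In Arntl they moved less there (392 and 364 counts, -0.15). The share of Per3-201 in the gene's TPM was 64.4% and 44.4%, and that of the transcripts other than protein coding 35.6% and 55.6%, with a mean of 45.6% that exceeded the share in 85.5% of the 9178 genes.

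The Per3 transcripts with the largest part in this were Per3-205, Per3-204 and Per3-202. Per3-205, a retained-intron transcript that starts at 151031497, held 181.1 and 303.7 counts. Per3-204, a processed transcript that starts at 151016145, held 0 counts in replicate 1 and 150.5 in replicate 2. Per3-202, a retained-intron transcript from the start beside the 2 D-boxes, held 47.23 and 103.7 counts. The start at 151044665, next to those D-boxes, carried 82.1% and 66.5% of the gene's TPM.

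The second quantification divided the Per3 difference more evenly. There Per3-201 had a log2 ratio of 0.23 and the other transcripts 0.68, with 51.1% of TPM on Per3-201 in replicate 2. Per3 lies wholly within the annotated span of Camta1, a calmodulin-binding transcription factor gene on the same strand, over all its 41014 bases. Camta1 was listed at 109 ± 2.73 TPM with a log2 ratio of -0.06 between the libraries. How reads from introns of Camta1 were assigned was not tested.

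For Per1 the quantifications disagreed. In the first, Per1-201 (1291 codons), which starts at 69098948 beside the E-box and D-box printed above, held 84.0% and 77.2% of Per1 counts and 58.7% and 49.9% of TPM. Per1-206, which has the same number of codons and starts further in at 69100158, held 0 counts in the first quantification. In the second, Per1-206 took 48.2% of TPM in replicate 1 and 14.5% in replicate 2, and Per1-201 32.6% and 59.0%. The leading transcript of Per1 thus differed between the libraries there, and it was the same in both for the other 9 genes. Per1-202, with 827 codons and an upstream start at 69095217, took 10.6% and 15.8% in the first and 15.8% and 21.9% in the second. The share of Per1-202 was higher in replicate 2 in both quantifications. Which of the start sites carried more Per1 transcription cannot be read from these shares.

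**Figure D4:**
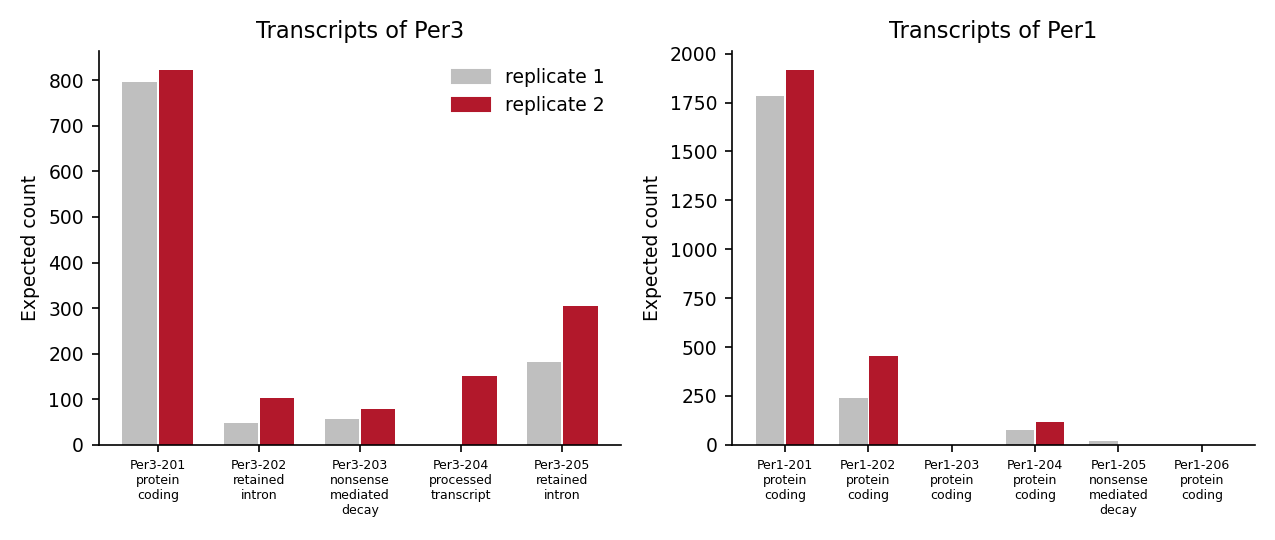
Expected counts of each annotated transcript of Per3 (left) and Per1 (right), in grey for replicate 1 and red for replicate 2. Per3-201 is level between the libraries (795 and 823 counts) while the other Per3 transcripts are higher in replicate 2.

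The remaining genes of the pathway were measured with 33 further genes reported here in 5 lists, of which 33 were detected, with a median of 36.6 TPM. All 7 clock kinase and phosphatase genes were detected, led by the phosphatase subunit Ppp1cb (158 ± 6.68 TPM; SD, n = 2) and casein kinase 1 alpha (Csnk1a1, 125 ± 3.16). So were all 7 ubiquitin ligase and deubiquitinase genes, led by Usp7 (63.15 and 63.83 TPM) and Fbxw7 (59.15 and 60.77 TPM). The 4 partners of the nuclear receptor loop reported here were detected, led by the corepressor Ncor1 (116 ± 4.05) and the histone deacetylase Hdac3 (33.3 ± 2.68).

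All 7 output and feedback factors were detected, led by the D-box factor Tef (110 ± 3.95 TPM) and the E-box repressor Bhlhe40 (42.4 ± 0.361). All 8 cofactors of the core complexes were detected, led by the CUL4 ubiquitin ligase subunit Ddb1 (75.5 ± 0.113) and the PER-associated protein Nono (51.2 ± 0.735). Between the libraries 1 of the 33 genes tested, or 3.03%, was at a log2 ratio of at least 0.25. Over all genes this was 14.6% at a mean of 1 CPM or more, and 694 of 11659 genes at 5 CPM or more. The pathway gene was Usp2, a deubiquitinase gene driven by the clock, named after its value was seen. It stood at 26.71 and 32.18 TPM, with a log2 ratio of 0.27 (counting interval 0.17 to 0.38). The others lay between -0.24 and 0.09, and the median was 0.00.

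**Figure D5:**
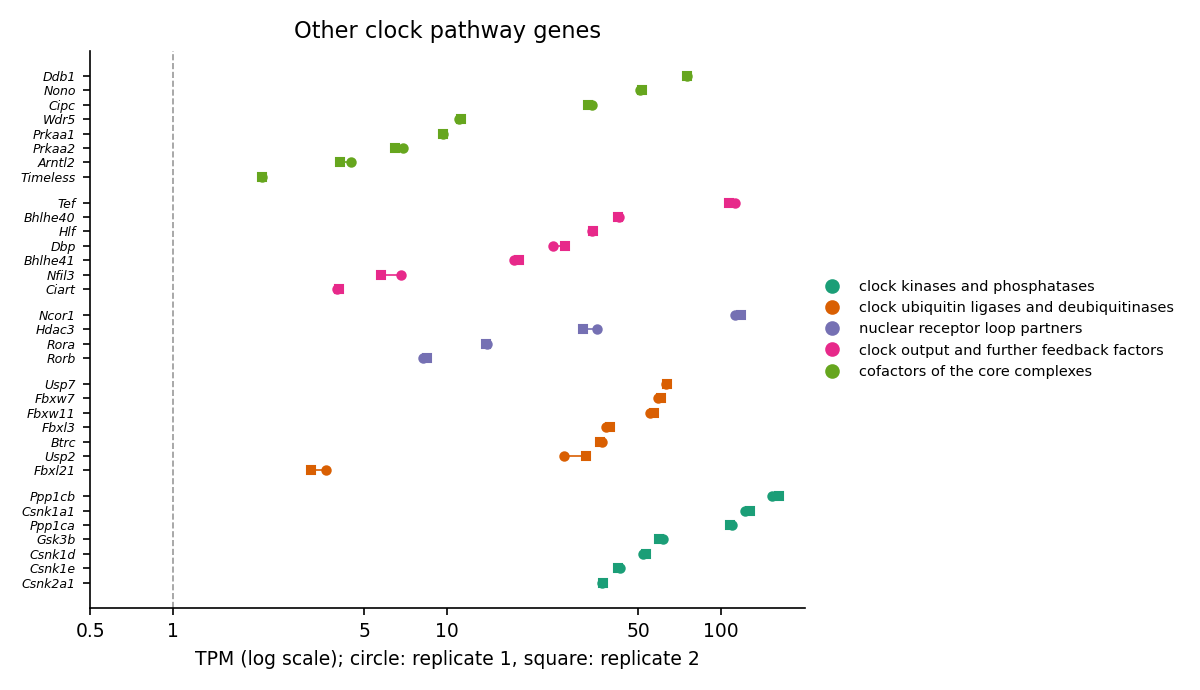
TPM (log axis) of 33 other clock pathway genes in replicate 1 (circles) and replicate 2 (squares), grouped by list, with a dashed line at 1 TPM. All 33 genes are right of the line, and Usp2 (26.71 and 32.18 TPM) is among those with visible distance between the libraries.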

How the data were processed

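The deposited files of each library cover genes and transcripts. Per the file headers, the authors' first tables list TPM and expected counts (the layout RSEM writes). Per the accompanying notes they rest on transcriptome alignments to mm10 with annotation M21. They also give bounds of a TPM interval, kept here as a deposited score. Per the file headers, another deposited transcript table lists TPM and estimated counts (the layout kallisto writes). It was summed per gene as the second quantification. The sources used here do not name the authors' software. Entries naming no gene (97 spike-ins with 0.378% and 0.368% of counts, and 26248 others with 4 and 6.99 counts) were left out.

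Expected counts were rounded for edgeR 4.0.16 (limma 3.58.1, R 4.3.3). Ratios used 0.5 added counts over TMM-scaled totals at a mean of 1 CPM or more, with exact binomial 95% intervals. The common dispersion was fitted over 17782 genes at a minimum of 10 counts. Levels between genes were compared in TPM. Neighbours in the order were called apart where the authors' intervals were separate in both libraries. No p-values were computed with 2 libraries in 1 group. Named were all members, the 2 highest and any undetected genes of each pathway list, the highest of each marker list, and leading transcripts with second ones at 10% and the leading transcript that is not coding at 5% or more. Other transcripts, further marker genes, overlapping genes, peptide genes and Usp2 were named after their values were seen. No genes of like pattern were named, as 1 group gives no pattern across conditions. The members and lists were chosen with earlier results of these data known. A gene of the pathway lists is not reported here. The ratio method was tested on simulated data with calls at a log2 ratio of 1 only, so that test does not cover the 0.25 threshold. DESeq2 1.42.0 size factors, library totals, spike-in scaling, a pseudocount of 5, other filters, leaving out either replicate, and the second quantification were alternatives. Levels over transcripts of at least 1000 bases and ratios of TPM were added after seeing the data. Other tools were scipy 1.17.1, pandas 2.3.3, numpy 2.4.6 and Python 3.11.15, with matplotlib 3.10.9 for plots.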

Additional observations from a re-analysis of the deposited data

How the results depend on the processing

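The median level of the 10 clock genes, 18.5 TPM, was 30.5 in the second quantification and 45.8 with TPM rescaled over nuclear protein-coding genes (the latter by construction; the cause of the former was not tested). The order held for 44 of 45 gene pairs or more under each alternative run. Per3 was the clock gene at a log2 ratio of at least 0.25 with each scaling, filter and quantification run, and ratios of TPM gave 2 such genes, Per3 and Per1. Of the 15509 genes tested, 2267 were at 0.25 or more in size and 82 at 1 or more. With no filter on low counts these were 12005 and 5649 of 27825 genes. At a minimum of 5 CPM they were 694 and 18 of 11659. Per2 over Per3 ranged from -0.37 to 0.08 when a replicate was left out, a change of sign. The leading transcript by mean share was the same for 10 of 10 genes by counts and in the second quantification. Of the 33 pathway genes, 29 to 33 were detected under the thresholds and quantifications run. Ratios between libraries have no value with a replicate left out. No paired analysis was possible because there is 1 group. With 2 libraries, and 294 and 333 counts for Cry1, small differences between libraries were not detectable.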
